A study of Mus musculus with 15 samples.

Results

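The interferon receptor and kinase genes were studied together with the inhibitors that act on them. The set held 9 of the 55487 genes in the count table. The genes were Ifnar1 and Ifnar2, which encode the chains of the type I interferon receptor, Ifngr1 and Ifngr2, which encode those of the interferon-gamma receptor, the kinase genes Jak1, Jak2 and Tyk2, and the inhibitor genes Socs1 and Socs3. They were taken by gene symbol, with no use of their levels.

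RNA of whole skin from 3-week-old mice was measured by 3′ sequencing, which counts reads near the end of each transcript. The WT group held 5 libraries of Otulin fl/fl mice without Cre. The other groups came from Otulin fl/fl K14-Cre mice (OTULIN E-KO), in which the keratin 14 promoter drives Cre and the loss of OTULIN is aimed at keratinocytes, with 5 libraries of non-lesional skin and 5 of lesional skin. All groups carried the loxP-flanked alleles and had a C57BL/6 background, and the labels name no agent. Fibroblasts, vessels, muscle and immune cells in the tissue are not targeted by this Cre. The methods do not say whether a lesional and a non-lesional library came from the same mouse, so each p-value measures the spread between these samples. OTULIN is a deubiquitinase that removes linear ubiquitin chains.

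Interferons bind receptors made of paired chains. JAK1 and TYK2 sit on the type I receptor, and JAK1 and JAK2 on the interferon-gamma receptor. The kinases phosphorylate STAT proteins, which enter the nucleus and switch on target genes, on their own or with IRF9. Socs1 and Socs3 are themselves switched on by STATs. Their proteins feed back on the pathway: SOCS1 blocks JAK kinases downstream of both interferon receptors, while SOCS3 acts mainly on receptors that use gp130, the shared chain of the IL-6 family. Keratinocytes and most other skin cells carry both interferon receptors.

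Depth was similar across libraries, at 1962604 to 2567138 counts. The methods name a low RNA integrity number both as a reason to exclude a sample and as a property of those included, and the value of each library is not given in the sources used here, so its part in the spread between libraries was not tested. The 6 keratinocyte markers were detected in all 15 libraries, as the skin label requires. Otulin itself did not separate the genotypes, at 23.1 ± 6.54 CPM in WT, 26.2 ± 4.16 in non-lesional and 24.8 ± 3.35 in lesional skin (CPM, counts scaled to a common library total, mean ± SD, n = 5 each). Where the removed exons lie relative to the counted 3′ end is not given in the sources used here, so these counts do not check the deletion. Lesional replicates 11 and 2 stood apart from the other lesional libraries. Their summed level of 8 hyperplastic epidermis markers, such as Krt6a and Sprr1b, was 34560.1 and 13473.3 CPM, against 248.1 to 436.7 CPM in lesional replicates 5, 8 and 14 and at most 1346.5 CPM in the other groups. Lesional replicate 14 stood at the other end, with the lowest summed level of keratinocyte markers (4289 CPM) and the highest of skeletal muscle markers (26072 CPM) among all 15 libraries.

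Stretches upstream of the inhibitor genes Socs1 and Socs3 are printed first because these members had the widest range of levels across the libraries, and because STAT proteins bind short motifs of the kind marked here. The sequences come from RefSeq on GRCm38.p6, which held a promoter window for all 9 genes, and are written 5′ to 3′ on the gene's strand. The Socs1 stretch runs from 130 to 11 bases upstream of the start, at chr16:10785547-10785666 on the minus strand. The Socs3 stretch runs from 210 to 91 bases upstream, at chr11:117969457-117969576 on the minus strand. It is upstream of the RefSeq start at base 117969366, but lies inside the Socs3 gene of the GENCODE annotation, which extends to base 117970047. Capitals mark matches to the gamma-activated site, TTCNNNGAA, which reads the same on both strands, or to the interferon-stimulated response element, searched on both strands as GAAA, any 2 bases and GAAA again.

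Socs1: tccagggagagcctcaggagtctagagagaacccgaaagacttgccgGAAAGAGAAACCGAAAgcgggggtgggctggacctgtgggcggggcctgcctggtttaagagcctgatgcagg
Socs3: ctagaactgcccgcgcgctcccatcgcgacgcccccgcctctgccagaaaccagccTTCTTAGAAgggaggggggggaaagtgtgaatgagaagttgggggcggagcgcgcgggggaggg

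The capitals in Socs1 are 2 overlapping response element matches, GAAAGAGAAA from 83 to 74 bases upstream and GAAACCGAAA from 77 to 68 bases upstream. The capitals in Socs3 are a gamma-activated site match, TTCTTAGAA, from 154 to 146 bases upstream. In the windows of 300 bases, from 250 before the start to 49 after the start base, Ifnar1 and Ifnar2 also held a gamma-activated site match, and the other 5 members held neither motif. Among 32851 promoters, 8.3% held the gamma-activated site and 3.44% the response element. These matches describe letters, not binding.

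The first question was how much of each receptor, kinase and inhibitor transcript the skin held. Each transcript gives reads at its 3′ end only, so levels in CPM were compared between genes without a length correction. Jak1, the kinase that both interferon receptors use, was the most abundant of the 9, with a median of 319.7 CPM over all 15 libraries. Ifngr1 followed at 197.3 CPM and Ifnar2 at 48.6 CPM. Socs3 (24.3 CPM), Tyk2 (23.5 CPM), Jak2 (22.4 CPM) and Ifngr2 (19.4 CPM) lay close together, and Ifnar1 (7.6 CPM) and Socs1 (4.45 CPM) were lowest.

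The top of this order was the same in every library. Jak1 was above Ifngr1, and Ifngr1 above Ifnar2, in 15 of 15. The middle was not ordered beyond the spread between libraries: Socs3 was above Tyk2 in 9 of 15 libraries, Tyk2 above Jak2 in 8 and Jak2 above Ifngr2 in 11. Ifngr2 exceeded Ifnar1 in 14 of 15 libraries, and Ifnar1 exceeded Socs1 in 12.

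**Figure D1:**
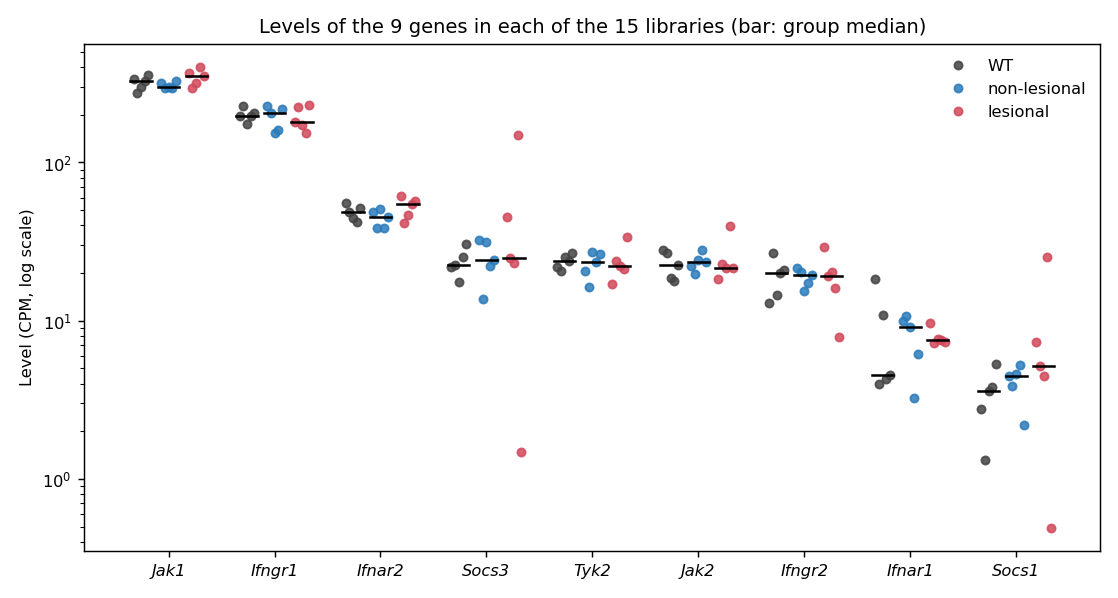
Level of each of the 9 genes in each library (CPM, log scale), ordered by median; points are libraries coloured by group and bars are group medians (5 libraries each). The receptor and kinase genes overlapped between groups, and Socs1 and Socs3 were spread widest in lesional skin, from 0.491 to 25.3 CPM and from 1.47 to 148.9 CPM.

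Ifnar2 (chr16:91372783-91405589), Ifnar1 (chr16:91485238-91507441) and Ifngr2 (chr16:91547072-91565623) are neighbours on the plus strand of GRCm38, and Ifngr1 lies at chr10:19591949-19610229. The genes of the paired chains of each receptor differed in 3′ reads. How evenly the 3′ ends of different genes were captured was not tested, so the ratios are of reads. Ifnar2, the ligand-binding chain with a long cytoplasmic tail, exceeded Ifnar1, the TYK2-binding chain, in all 15 libraries, with a median ratio of 6.38 and a range from 3.0 to 12.2. Ifngr1, the ligand-binding chain that recruits JAK1, exceeded Ifngr2, the JAK2-binding chain, in all 15 libraries, with a median ratio of 9.95 and a range from 6.16 to 29.6. The highest of these ratios was in lesional replicate 14, where Ifngr2 had its lowest level of the series. Jak1 exceeded Tyk2 by a median of 13.2 times and Jak2 by 14.5 times, and Socs3 exceeded Socs1 by 5.88 times (range 3.0 to 17.0). Ifnar2 shares exon sequence with Gm21970 on the same strand. Jak1 overlaps Raver2, and Tyk2 overlaps 1700084C06Rik, on the opposite strand. The counting assigned a read to each gene it overlapped, so the Ifnar2 level may include reads of Gm21970. The counting options listed in the methods include none for strand, so reads of the opposite strand may have been counted.

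The ligands of the receptors were scarcely detected. Of 21 interferon genes in the table, 18 had no read in any library, which in 1 library allows a level of up to 1.17 to 1.53 CPM (3 counts, for counting error only). Ifnk, the interferon kappa gene of keratinocytes, had 23 counts over 8 libraries, 9 of them in lesional replicate 2. Ifna13 had 3 counts, in lesional replicate 8, and Ifng had 1 count, in lesional replicate 11. At this depth a difference in ligand transcripts between the groups was not detectable, and no ligand gene passed the filter on low counts.

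The design then asks whether OTULIN loss, without or with a visible lesion, went with other levels of the pathway's components. For the receptor and kinase genes no such difference passed the test. Of the 9 members, 8 were tested in non-lesional against WT skin and 9 in each of the other comparisons. None had an adjusted p below 0.05 in edgeR's quasi-likelihood test, and none had an unadjusted p below 0.05. With all 15 libraries in 1 edgeR fit, Socs1 had an unadjusted p of 0.0417 in lesional against WT skin and an adjusted p of 0.677. The background was equally bare after adjustment, at 0% of 13021, 12918 and 12864 genes tested. An unadjusted p below 0.05 was found for 3.16% of all genes in non-lesional against WT, 4.81% in lesional against WT and 4.22% in lesional against non-lesional skin. DESeq2 also called no member, and the other limma and edgeR fits called none. No member had groups that failed to overlap, where the background was 0.66%, 0.689% and 0.622%.

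The type I receptor gene Ifnar1 rested on few reads. Its level in WT replicates 1, 4, 7, 10 and 13 was 18.5, 3.97, 10.9, 4.26 and 4.56 CPM. Non-lesional replicates 3, 6, 9, 12 and 15 had 9.91, 10.7, 9.16, 3.24 and 6.18 CPM. Lesional replicates 2, 5, 8, 11 and 14 had 9.63, 7.26, 7.68, 7.6 and 7.36 CPM. WT replicate 1 was the highest of the series, the lesional libraries lay close together, and all groups overlapped. The log2 fold change was -0.11 (SE 0.44) in non-lesional and -0.10 (SE 0.41) in lesional against WT skin. The sign rested on single libraries. Without WT replicate 1 the values were 0.41 and 0.43, without non-lesional replicate 12 the non-lesional value was 0.0905, and without WT replicate 7 the lesional value was 0.0018.

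Ifnar2, the other type I chain, was far steadier. It measured 48.3 ± 5.46 CPM in WT, 44.3 ± 5.64 in non-lesional and 52.3 ± 8.16 in lesional skin (SD, n = 5 each). Its difference between lesional and non-lesional skin was the largest among the receptors and kinases, with a log2 fold change of 0.24 (95% interval -0.09 to 0.57). Its adjusted p was 0.973 in edgeR's quasi-likelihood test, and from 0.671 to 1.0 over 19 alternatives. The lesional libraries held 41.5 to 61.4 CPM and the non-lesional ones 38.5 to 50.8 CPM, so the groups overlapped.

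The interferon-gamma receptor genes did not separate the groups either. Ifngr1 measured 200.6 ± 18.2 CPM in WT, 193.0 ± 34.0 in non-lesional and 192.6 ± 34.4 in lesional skin (SD, n = 5 each). Its 95% interval ran from -0.36 to 0.24 on the log2 scale for lesional against WT skin. Ifngr2 had group means of 19.1, 18.8 and 18.6 CPM, but its lesional libraries ranged from 7.85 CPM in replicate 14 to 29.3 CPM in replicate 2. These were the lowest and the highest Ifngr2 levels of all 15 libraries.

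The kinase genes Jak1 (chr4:101152367-101265282), Jak2 (chr19:29251828-29313080) and Tyk2 (chr9:21104068-21131243) did not separate the groups. Jak1 measured 318.6 ± 31.7 CPM in WT, 307.6 ± 15.3 in non-lesional and 347.2 ± 42.1 in lesional skin, with log2 fold changes of -0.05, 0.12 and 0.18 in the 3 comparisons. Tyk2 measured 23.8 ± 2.5, 22.8 ± 4.44 and 23.6 ± 6.26 CPM (SD, n = 5 each). Lesional replicate 14 had the highest Tyk2 level, at 33.9 CPM. Jak2 measured 22.7 ± 4.61, 23.5 ± 3.01 and 24.7 ± 8.42 CPM. In lesional replicate 11 it reached 39.5 CPM, against 18.3 to 22.8 CPM in the other lesional libraries and at most 28.0 CPM in the other groups. Without that library its log2 fold change in lesional against WT skin turned from 0.12 to -0.11.

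Across these 7 genes the fold changes stayed within 0.13 on the log2 scale in non-lesional against WT, 0.12 in lesional against WT and 0.24 in lesional against non-lesional skin. Their median was -0.06, -0.01 and 0.05, where the median of all genes tested was -0.003, -0.003 and 0.003. The intervals do not show that the groups were alike. For Ifnar1 they spanned -0.98 to 0.79 in lesional against WT skin, and for Jak1, the best counted gene, -0.16 to 0.41. Fewer cells of a type and less RNA per cell cannot be told apart in whole tissue.

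**Figure D2:**
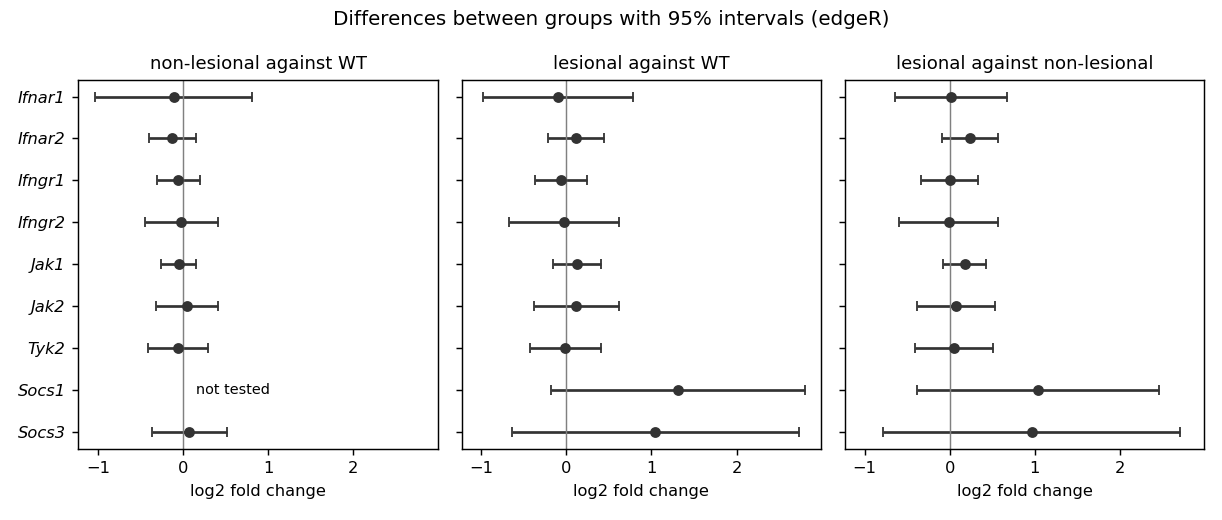
Log2 fold change of each gene in the 3 comparisons (points) with its 95% interval from edgeR's quasi-likelihood fit (bars), from 5 libraries a group. Receptor and kinase values lay within 0.24 of 0, Socs1 and Socs3 were near 1 in lesional skin with intervals that crossed 0, and Socs1 was not tested in non-lesional against WT skin because of its low counts.

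The inhibitor genes varied most, and they did so within lesional skin. Socs3 in WT replicates 1, 4, 7, 10 and 13 was at 22.0, 22.5, 17.7, 25.1 and 30.4 CPM. Non-lesional replicates 3, 6, 9, 12 and 15 were at 32.4, 13.7, 31.6, 22.3 and 24.3 CPM. Lesional replicates 2, 5, 8, 11 and 14 were at 45.4, 24.9, 23.0, 148.9 and 1.47 CPM. Lesional replicates 11 and 2 lay above all 10 libraries of the other groups and lesional replicate 14 below all of them, while lesional replicates 5 and 8 lay among them. The level in replicate 14 came from 3 reads (95% Poisson interval 0.304 to 4.3 CPM, for counting error only), and that in replicate 11 from 294. The SD of the lesional libraries was 11.9 times what counting error gives, against 1.5 times in WT and 2.34 times in non-lesional skin.

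Socs1 showed the same order of lesional libraries at a lower level. WT replicates 1, 4, 7, 10 and 13 held 2.75, 1.32, 3.62, 3.84 and 5.31 CPM. Non-lesional replicates 3, 6, 9, 12 and 15 held 4.5, 3.87, 4.58, 5.27 and 2.21 CPM. Lesional replicates 2, 5, 8, 11 and 14 held 7.34, 5.19, 4.45, 25.3 and 0.491 CPM. Again lesional replicates 11 and 2 were above every WT and non-lesional library and replicate 14 below every one, so the groups overlapped. Replicate 14 had 1 Socs1 read (95% Poisson interval 0.0124 to 2.73 CPM) and replicate 11 had 50. In WT and non-lesional skin the SD of Socs1 was 1.25 and 0.88 times the counting error, so that differences between those libraries were not detectable at this depth.

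The mean of Socs1 was 8.56 ± 9.7 CPM in lesional skin, 4.08 ± 1.16 in non-lesional and 3.37 ± 1.47 in WT skin (SD, n = 5 each). Against WT this was a log2 fold change of 1.31 (SE 0.69, 95% interval -0.18 to 2.80), with an adjusted p of 0.926 in edgeR's quasi-likelihood test, from 0.641 to 1.0 over 18 alternatives. Against non-lesional skin it was 1.04 (SE 0.65). Socs3 had a log2 fold change of 1.05 (SE 0.76, 95% interval -0.64 to 2.73) against WT skin and of 0.96 (SE 0.78) against non-lesional skin. Its adjusted p against WT was 0.928 in the same test, from 0.641 to 1.0 over 19 alternatives. In non-lesional against WT skin, Socs3 differed by 0.07 (95% interval -0.37 to 0.52).

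Lesional replicate 11 carried these fold changes. Without it Socs1 was at 0.37 against WT and 0.10 against non-lesional skin, and Socs3 at 0.01 and -0.06. Without replicates 2 and 11 the values were -0.0036 and -0.27 for Socs1 and -0.51 and -0.58 for Socs3. Leaving out replicate 14 instead raised them to 1.61 and 1.34 for Socs1 and to 1.35 and 1.28 for Socs3. The unadjusted p against WT was then 0.0117 for Socs1 and 0.0286 for Socs3 in edgeR's quasi-likelihood test, with an adjusted p of 0.641 for each. With replicates 11 and 14 both left out, an alternative chosen after the data were seen, Socs1 was at 0.72 and Socs3 at 0.40 against WT.

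**Figure D3:**
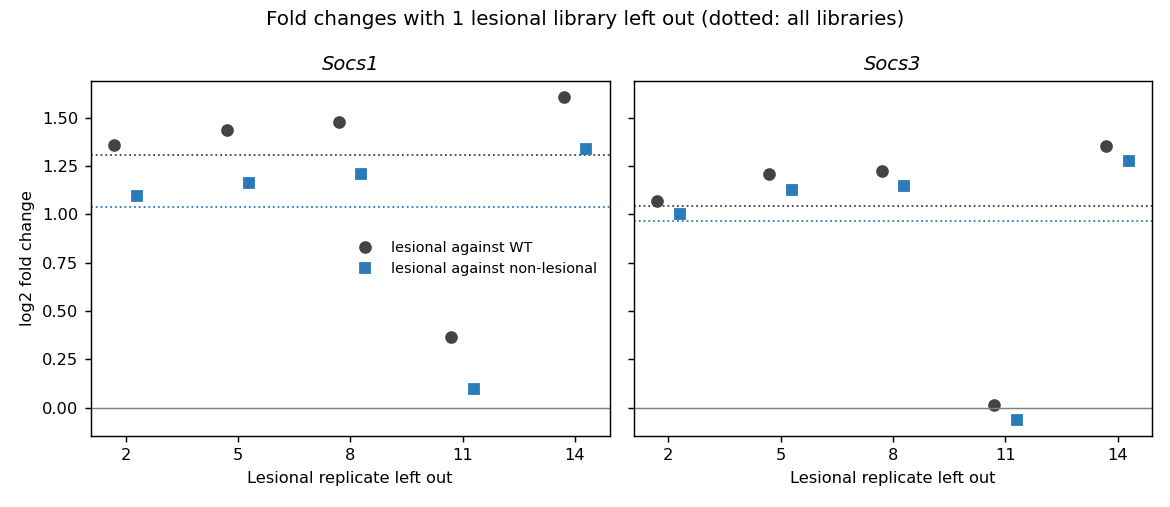
Log2 fold change of Socs1 and Socs3 in lesional skin when 1 lesional library was left out (points: against WT in grey, against non-lesional in blue; dotted lines: all libraries). Leaving out replicate 11 brought the values to between -0.06 and 0.37, and leaving out any other left them at 1.0 or more.

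Other features of the tissue moved with the inhibitors. Lesional replicate 11, the highest for Socs1 and Socs3, also had the highest summed level of keratinocyte markers (12790.5 CPM, against 5150 to 8155 in WT) and the lowest of skeletal muscle markers (2676 CPM, against 11935 to 22090.7 in WT). Lesional replicate 14, the lowest for Socs1 and Socs3, had the lowest keratinocyte and the highest muscle marker sum. The summed level of 8 neutrophil markers was 18.2 CPM in replicate 11 and 5.5 CPM in replicate 2, against at most 2.07 CPM elsewhere, with Ly6g, Csf3r and Mpo at 0 in all 15 libraries. By its Xist and Y-linked counts, replicate 11 was also the only lesional library of a female, as was replicate 1 among WT and replicate 12 among non-lesional libraries. With sex as a covariate, the log2 fold changes against WT were 0.99 for Socs1 and 0.55 for Socs3. The part of tissue makeup in the Socs1 and Socs3 levels was not tested.

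**Figure D4:**
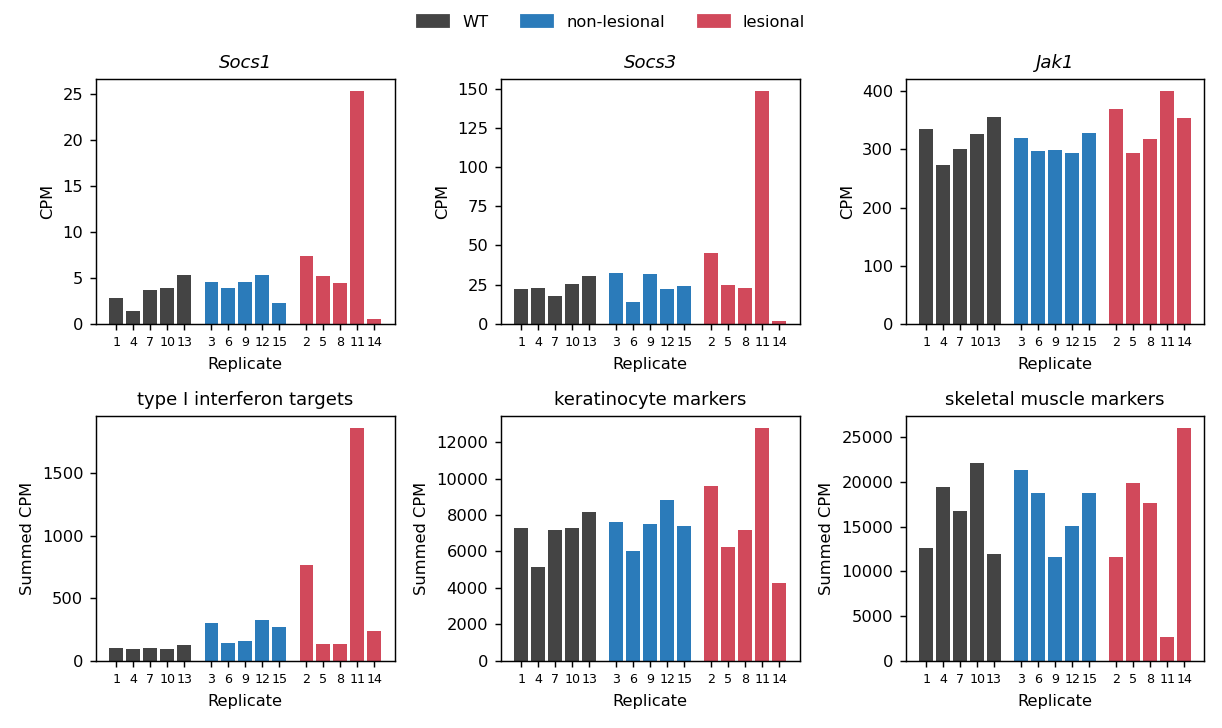
Levels in each library, by group and replicate number: Socs1, Socs3 and Jak1 in CPM (upper row), and summed CPM of type I interferon targets, keratinocyte markers and skeletal muscle markers (lower row). Bars start at 0; lesional replicate 11 was highest for every quantity shown except muscle markers, where it was lowest, and lesional replicate 14 was lowest for Socs1, Socs3 and keratinocyte markers.

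The cytokines that signal through gp130, and for which SOCS3 is the main brake, were also sparse, and none of 8 passed the filter in any of the 3 comparisons. Osm and Il6 were singled out after their values were seen. Osm, the gene of oncostatin M, had 29 reads (14.7 CPM) in lesional replicate 11 and 9 reads in replicate 2, and none in lesional replicates 5, 8 and 14. WT and non-lesional libraries held at most 2 Osm reads. Il6 had 6 reads in lesional replicate 11 and at most 2 in any other library. Clcf1, with 31 and 19 reads, and Il27, with 14 and 13, also had their most reads in lesional replicates 11 and 2. In these libraries Cntf, Ctf1 and Il11 lay within the WT range, and Lif had at most 3 reads in any library. A link between these cytokines and Socs3 was not tested.

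Downstream of the receptors, Stat2 and Irf9, whose products take part in the factor that reads the interferon-stimulated response element were examined next, and neither passed the test after adjustment. The gene lists here were chosen with earlier results of these data known. Of 7 STAT factor and Irf9 genes tested, 3, with Stat2 and Irf9 among them, were higher at an unadjusted p below 0.05 by edgeR's test. This held in non-lesional and in lesional against WT skin, where 1.85% and 3.24% of all genes were. In lesional against non-lesional skin none of the 7 was. Stat2 was at 9.42, 15.9, 17.2, 23.4 and 14.1 CPM in WT replicates 1, 4, 7, 10 and 13. It was at 30.2, 15.03, 22.9, 34.0 and 23.9 CPM in non-lesional replicates 3, 6, 9, 12 and 15, and at 43.6, 19.2, 26.7, 85.6 and 25.02 CPM in lesional replicates 2, 5, 8, 11 and 14. Non-lesional replicates 3, 12 and 15 and lesional replicates 2, 8, 11 and 14 lay above every WT value, and the others among them.

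The log2 fold change of Stat2 was 0.66 (SE 0.24, adjusted p = 1.0, edgeR's quasi-likelihood test) in non-lesional and 1.32 (SE 0.40, adjusted p 0.926) in lesional against WT skin. Irf9 had 0.78 and 1.21 (SE 0.18 and 0.33). Without lesional replicates 2 and 11 the values in lesional against WT skin were 0.57 for Stat2 and 0.53 for Irf9. Irf9 shares exon sequence with Rnf31 on the same strand, and Stat3 overlaps Stat5a on the other, so part of their reads may belong to those genes. Stat3, the factor of the gp130 receptors, was at 215.5 ± 16.9 CPM in WT and 222.7 ± 21.5 in non-lesional skin (SD, n = 5 each). In lesional skin it reached 534.9 CPM in replicate 11 and 315.0 in replicate 2, but 169.3 to 201.2 CPM in the other 3 libraries.

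Of 20 type I interferon targets, 11 had enough reads to be tested against WT skin. Of these, 7 were below the minimum of 10 reads at median depth in at least 1 WT library and so passed the filter with the help of OTULIN E-KO libraries, which favours genes that are higher there. The other 4, Ifi27l2a, Ifih1, Oasl2 and Rsad2, reached the minimum in every WT library. All 4 had an unadjusted p below 0.05 and a higher level in non-lesional and in lesional skin by edgeR's test, where 1.62% and 3.06% of all genes that met the same condition did, and none passed after adjustment. Only 1 of the 4 did so in lesional skin without lesional replicates 2 and 11, against 1.29% of such genes. In lesional against non-lesional skin 1 of 13 tested targets, Ifi44, was higher at that threshold, where 2.89% of all genes were. The median log2 fold change of the 13 was 1.07. Without lesional replicates 2 and 11 it was -0.51, none of the 13 tested was positive, and Ifi44 was at -0.80 (SE 0.46). Ddx60 and Rtp4, named by lowest p, were among the targets below the minimum in at least 1 WT library. Ddx60, an antiviral helicase gene, measured 7.84 ± 2.3 CPM in WT, 22.1 ± 10.8 in non-lesional and 41.3 ± 38.1 in lesional skin (SD, n = 5 each). Rtp4 measured 5.34 ± 1.81 CPM in WT, 18.2 ± 10.4 in non-lesional and 55.7 ± 67.6 in lesional skin. Their log2 fold changes in lesional against WT skin were 2.38 and 3.36. Without lesional replicates 2 and 11 they were 1.065 (SE 0.35) and 1.17 (SE 0.34).

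Summed over all 20 targets, WT libraries held 90.1 to 124.1 CPM and non-lesional libraries 142.6 to 329.8 CPM. Lesional replicates 2, 5, 8, 11 and 14 held 764.4, 134.3, 137.4, 1866 and 236.0 CPM. All 10 OTULIN E-KO libraries thus lay above all 5 WT libraries for this sum. The list was chosen with earlier results of these data known, and how often sums of other genes split this way was not tested. Such a sum cannot be set against single receptor or kinase genes.

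Lesional replicate 14 was low for the inhibitors and for STAT3 targets, but not for interferon targets. It held 236.0 CPM of type I targets, more than lesional replicates 5 and 8, and 99.1 CPM of Irf9, with 1 read of Socs1. Its summed STAT3 targets, at 674.2 CPM, were the lowest of all 15 libraries, whereas its interferon-gamma targets, at 856.2 CPM, lay within the WT range of 607.5 to 1108.2 CPM.

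Targets of interferon-gamma and of STAT3 were examined in the same way. Of 18 interferon-gamma targets tested, 16 reached the minimum in every WT library. Of these, 3 in non-lesional and 5 in lesional against WT skin were higher at an unadjusted p below 0.05, where 1.62% and 3.06% of such genes were. None of the 16 was in lesional skin without lesional replicates 2 and 11 by edgeR's quasi-likelihood test. Gbp2, a guanylate-binding protein gene, measured 16.9 ± 2.79 CPM in WT, 24.4 ± 3.68 in non-lesional and 47.0 ± 46.4 in lesional skin (SD, n = 5 each). Of 15 STAT3 targets tested, none was higher in non-lesional skin by edgeR's test at an unadjusted p below 0.05, and 1 was in lesional skin, namely Il4ra (log2 fold change 1.23, SE 0.49), where 3.24% of all genes were. Il4ra was at 132.2 CPM in lesional replicate 11 and 55.9 CPM in replicate 2, but at 23.3 to 24.7 CPM in the other lesional libraries, within the WT range of 15.8 to 27.4 CPM. Without replicates 2 and 11 its log2 fold change was 0.12 (SE 0.23). Il4ra encodes the IL-4 receptor alpha chain and was chosen for both this list and that of cytokine receptors.

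No gene of the other pathway lists passed edgeR's test after adjustment. Of 7 other JAK and SOCS family genes tested, 1 was higher at an unadjusted p below 0.05 in lesional against WT skin, where 3.24% of all genes were. This gene, Cish, a STAT5-induced inhibitor gene of the same family, measured 31.0 ± 10.3 CPM in WT, 36.1 ± 7.59 in non-lesional and 48.4 ± 7.23 in lesional skin (SD, n = 5 each). Its log2 fold change against WT was 0.64 (SE 0.22, adjusted p 0.926, edgeR's quasi-likelihood test), and it still had an unadjusted p below 0.05 without lesional replicates 2 and 11. Of 12 other negative regulators tested, 11 reached the count minimum in every WT library. None of these was higher at that threshold against WT, where 1.62% of such genes were in non-lesional and 3.06% in lesional skin. The remaining 1 was higher in both comparisons, where 1.85% and 3.24% of all genes were. This gene, Usp18, which was below the count minimum in at least 1 WT library and whose product binds IFNAR2 and damps the type I receptor, had log2 fold changes of 1.5 (SE 0.38) in non-lesional and 2.20 (SE 0.61) in lesional against WT skin. Without lesional replicates 2 and 11 the latter was 0.87 (SE 0.43), with an unadjusted p of 0.0576 in edgeR's test. Usp18 is also among the type I targets listed, and both Cish and Usp18 overlap exons of a predicted gene on the opposite strand. It measured 3.5 ± 1.14 CPM in WT, 10 ± 4.72 in non-lesional and 16.3 ± 16.2 in lesional skin.

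Receptors of related pathways were examined in the same way. Of 18 other JAK-coupled cytokine receptor genes tested, none had an unadjusted p below 0.05 in non-lesional against WT skin by edgeR's test, and 2, Il4ra and Il7r, did in lesional against WT skin, both with a higher level, as did 3.24% of all genes. Il7r, the IL-7 receptor alpha chain gene, measured 11 ± 3.46 CPM in WT and 18.8 ± 10 in lesional skin (SD, n = 5 each). Its log2 fold change of 0.78 against WT was 0.17 (SE 0.30) without lesional replicates 2 and 11. The type III interferon receptor genes, Ifnlr1 and Il10rb, were at 13 ± 3.51 and 16.4 ± 7.46 CPM in WT skin, close to Ifngr2. Their lesional means were 11.1 ± 6.94 and 19.4 ± 5.17 CPM.

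Last, the members were compared with each other and with all genes across the 15 libraries, as a description only, since libraries share tissue makeup. Among member pairs, Ifnar2 and Jak1 had the highest Spearman rho, 0.743, and Socs1 and Socs3 the next, 0.707. Without lesional replicates 2 and 11 these were 0.648 and 0.549. Ifngr2 and Tyk2 had the lowest, -0.55. The gene whose levels were most like those of Jak1 was Cldn4 (rho 0.968), that for Tyk2 was Tuft1 (0.932), and that for Socs1 was Macc1 (0.918). For Ifnar2 it was Ccl8, a chemokine gene (0.886). Over 13461 genes the median of such a best rho was 0.879. The values for Ifnar1 (0.861 with Myzap), Ifngr2 (0.811 with E430018J23Rik) and Jak2 (0.796 with Cfap36) lay below it, and that for Ifngr1 (0.879 with Chd2) was near it.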

How the data were processed

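Skin libraries (QuantSeq 3′ FWD kit) were grouped by genotype and skin appearance as the labels give them. The authors clipped adaptors with cutadapt 2.10 (submitters' processing notes), aligned reads to GRCm38 with Subread, kept uniquely mapped reads with SAMtools 1.7-2 and counted exons per gene with featureCounts 2.0.1, and deposited raw counts. A read over several genes was counted for each. The counting options listed include none for strand, and the annotation release is not given in the sources used here. A second deposited table of scaled values was not used.

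From the counts, pairwise comparisons were fitted with edgeR 4.0.16 (TMM scaling, filterByExpr, robust quasi-likelihood test, Benjamini-Hochberg adjustment over all genes tested, threshold 0.05) in R 4.3.3. The study used DESeq2, run here as an alternative (version 1.42.0), as was limma 3.58.1 with library weights. Scripts were tested on simulated data. CPM are relative to library totals scaled by TMM over all 15 libraries. Intervals on a single library are exact Poisson intervals. The members and gene lists were chosen with earlier results of these data known. Genes of a list were named by lowest p, up to 3 a comparison, beside the 9 members. Likeness was Spearman's rho over 15 libraries. Promoters were RefSeq windows on GRCm38.p6, searched for both motifs on both strands. Positions of genes followed the GRCm38 annotation. A gene of the lists is not reported here.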

Additional observations from a re-analysis of the deposited data

Results flagged for a closer look

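Within each group of 5 libraries, a library was singled out when its distance to the nearest other library took up more of the group's range than Dixon's 95% value of 0.71 allows. Of 27 groups looked at (9 genes in 3 groups), 3 met this, and chance alone singles out about 1 in 20 groups. All were lesional. Ifnar1 was highest in lesional replicate 2, at 9.63 CPM, with the next library at 7.68 CPM and 0.824 of the range between them, within a group whose spread was below counting error (0.507 times). Jak2 was highest in lesional replicate 11, at 39.5 CPM, with the next at 22.8 CPM (0.788 of the range). Socs1 was highest in the same library, at 25.3 CPM, with the next at 7.34 CPM (0.724 of the range).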

How the results depend on the processing

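No member was called in any comparison under any setting tried: another tool (DESeq2, limma), another scaling, no filter, all libraries in 1 fit, sex as a covariate, or libraries left out. Of 477 alternative fold changes of members, 404 kept their direction and side of the threshold and 73 changed sign, and the cause was not tested. Socs1 failed the filter on low counts in non-lesional against WT skin, and the 9 alternatives that kept it gave log2 fold changes from 0.0745 to 0.42, with adjusted p-values from 0.94 to 1.0 (edgeR and DESeq2). Over all genes, DESeq2 called 1 gene in non-lesional and 14 in lesional against WT skin, and edgeR without a filter called 18 in non-lesional against WT skin. Leaving out non-lesional replicate 6 gave 5 there. No paired analysis was run, because the labels do not say which lesional and non-lesional libraries, if any, came from the same mouse. A pairing was not tested, and the p-values take the libraries as independent. Depth limits Socs1 and Ifnar1 most, and the ligands could not be tested.

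Changes of sign were mostly of log2 fold changes near 0. With limma library weights, Ifnar1 was at 0.0437 in non-lesional and 0.24 in lesional against WT skin and Ifngr2 at 0.0624 in the latter, while in lesional against non-lesional skin Ifngr1 was at 0.0196, Ifngr2 at 0.0685, Jak2 at -0.0965 and Tyk2 at -0.0072. Sex as a covariate put Ifnar1 at 0.0539 in lesional against WT skin. In lesional against non-lesional skin, Ifngr1 was at 0.0023 in DESeq2 and 0.0017 with its size factors, and Ifnar1 at -0.0195 with upper quartile scaling. Without lesional replicates 2 and 11, the values against WT were -0.0039 for Ifnar2, 0.056 for Ifngr1, -0.0601 for Jak2, 0.15 for Tyk2, -0.0036 for Socs1 and -0.51 for Socs3, and against non-lesional skin -0.0721 for Ifnar1, 0.12 for Ifngr1, -0.10 for Jak2, -0.27 for Socs1 and -0.58 for Socs3. Without lesional replicates 11 and 14, chosen after seeing the data, Ifngr2 was at 0.27 and Jak2 at -0.13 against WT, and Ifngr2 at 0.29, Jak2 at -0.17 and Tyk2 at -0.12 against non-lesional skin.

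With 1 library left out at a time, log2 fold changes in non-lesional against WT skin ranged from -0.28 to 0.41 for Ifnar1, -0.13 to 0.0175 for Ifngr1, -0.13 to 0.14 for Ifngr2, -0.0284 to 0.13 for Jak2, -0.13 to 0.0403 for Tyk2 and -0.0408 to 0.23 for Socs3. In lesional against WT skin they ranged from -0.27 to 0.43 for Ifnar1, -0.14 to 0.0138 for Ifngr1, -0.26 to 0.16 for Ifngr2, -0.11 to 0.21 for Jak2 and -0.18 to 0.0893 for Tyk2. In lesional against non-lesional skin they ranged from -0.18 to 0.16 for Ifnar1, -0.0783 to 0.0738 for Ifngr1, -0.24 to 0.18 for Ifngr2, -0.16 to 0.17 for Jak2, -0.12 to 0.15 for Tyk2 and -0.0621 to 1.28 for Socs3.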
